A study of Mus musculus with 8 samples.

Results

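The corticosteroid response genes described here are 8 genes of the glucocorticoid and mineralocorticoid pathway: the receptors Nr3c1 and Nr3c2, the enzyme Hsd11b2, the target genes Tsc22d3, Fkbp5, Sgk1 and Zbtb16, and the sodium channel subunit Scnn1a. They were chosen by their levels on these same arrays, after some had stood out in the comparisons below, so their levels are given as a description. Calls of the model over all genes are counted for them once, beside the share of all genes called, and support nothing. Of the 12393 genes with a probe set of their own, 7 belong to the list, with 13 probe sets between them. No probe set was paired with Nr3c2 in the annotation used here, and it was not analysed.

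The study hybridised RNA of mouse intestinal epithelial cells to 8 Affymetrix arrays, 2 per genotype, to ask how the kinase IKKα acts on Wnt-driven growth of the gut epithelium. The groups were wild type (WT), mice with 2 copies of the AA form of IKKα (IKKa-AA), mice in which tamoxifen stabilises β-catenin in intestinal epithelial cells only (bCATca), and mice with both changes (bCATca_IKKa-AA, called double mutants here). All 4 groups, WT included, had received tamoxifen by gavage on 5 days, were of mixed strain (C57BL/6 x 129Sv x FVB) and gave cells on day 15 after the first dose. The AA allele is a germline knock-in that takes away the residues needed to activate IKKα, so every cell type of an IKKa-AA mouse carries it, while the β-catenin change is limited to the epithelium. Animal age and hormone levels are not given in the sources used here.

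Corticosteroid hormones enter cells and bind the glucocorticoid receptor (Nr3c1) or the mineralocorticoid receptor (Nr3c2), which move to the nucleus and act on DNA elements built from an inverted repeat. Glucocorticoids bind both receptors, and Hsd11b2 protects the mineralocorticoid receptor from them by turning active corticosterone into an inert form. In the gut, these hormones act on sodium uptake, nutrient transport and the maturation of enterocytes, and the gut epithelium can also make glucocorticoid itself under control of Nr5a2. Tsc22d3 (also called GILZ), Fkbp5 and Sgk1 are textbook targets: Tsc22d3 restrains inflammatory transcription factors, Fkbp5 is a co-chaperone that lowers the receptor's hormone affinity, and Sgk1 is a kinase that keeps the epithelial sodium channel at the cell surface.

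Promoter sequences are shown for the 3 members whose levels differed most between genotypes, since the receptor's binding element is a known letter pattern. RefSeq sequences of the 250 bases before annotated transcript starts (build GRCm38.p6) held 4 of the 8 members: Sgk1 with 6 starts, Tsc22d3 with 3, and Fkbp5 and Nr3c2 with 1 each. Capitals mark AGAACA or TGTTCT, the arms of the element. The Sgk1 window shown, alone among its 6, holds both arms at the element's spacing of 3 bases. The Tsc22d3 window shown is the only one of its 3 with an arm.
Sgk1, chr10:21993640-21993889, plus strand: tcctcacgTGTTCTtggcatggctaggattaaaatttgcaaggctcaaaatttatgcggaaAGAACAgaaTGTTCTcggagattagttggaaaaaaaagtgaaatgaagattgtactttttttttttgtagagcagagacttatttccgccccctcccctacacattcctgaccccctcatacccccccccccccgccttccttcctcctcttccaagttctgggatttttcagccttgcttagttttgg
Tsc22d3, chrX:140600523-140600772, minus strand: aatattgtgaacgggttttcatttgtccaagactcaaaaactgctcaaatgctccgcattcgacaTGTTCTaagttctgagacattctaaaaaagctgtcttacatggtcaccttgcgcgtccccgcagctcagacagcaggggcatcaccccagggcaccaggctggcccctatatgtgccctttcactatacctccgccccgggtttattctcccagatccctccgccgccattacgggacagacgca
Fkbp5, chr17:28486150-28486399, minus strand: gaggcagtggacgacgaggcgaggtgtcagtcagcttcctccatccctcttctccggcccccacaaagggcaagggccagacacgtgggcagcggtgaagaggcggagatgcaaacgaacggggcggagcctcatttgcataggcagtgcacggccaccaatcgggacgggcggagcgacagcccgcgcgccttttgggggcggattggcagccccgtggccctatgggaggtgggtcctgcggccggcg

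Both strands of each window of 300 bases, from 250 before to 50 after the start, were searched. The full pattern, AGAACA and TGTTCT with 3 bases of any kind between them, reads the same on either strand. It was found in 3 of 32851 windows (0.00913%), and the Sgk1 window printed above is one of them, with the pattern beginning 189 bases before the start. A single arm, which every full pattern also contains, was far more common, in 6233 windows (19.0%), and it lay in 4 of the 11 member windows, including the Tsc22d3 window above at 185 bases before the start. The Fkbp5 window held neither arm. A match is a description of the letters and not evidence of binding, and no match says only that the letters are not in that window.

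All levels below are log2 intensities of the deposited values, which compare arrays for 1 probe set and not genes with each other, and differences are between group means on that scale, each with its standard error (SE) from a limma model, n = 2 arrays per group. The 4 comparisons share arrays: WT enters both comparisons with WT, and bCATca and IKKa-AA each enter another, so the values are given side by side. In these bulk samples, fewer cells of a type and less RNA per cell cannot be told apart.

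The glucocorticoid receptor gene Nr3c1 varied little. Its probe set 1460303_at, the brightest of 3 and the one that stands for the gene, read 8.09 and 8.59 on the WT arrays, 8.21 and 8.59 for IKKa-AA, 8.02 and 7.81 for bCATca and 8.31 and 7.83 for double mutants. Both bCATca arrays lay below both WT arrays, by 0.43 on average (SE 0.24), and below both IKKa-AA arrays, and the remaining pairs of groups overlapped. The probe set 1421867_at gave a similar picture, with 7.93 and 7.75 in bCATca against 8.32 and 8.63 in WT. The dimmer probe set 1421866_at separated the groups more widely, at 5.10 and 5.43 on the WT arrays, 5.64 and 5.83 for IKKa-AA, 4.33 and 4.41 for bCATca and 4.59 and 5.13 for double mutants. On that probe set bCATca was below WT by 0.90 (SE 0.20), and IKKa-AA was highest, so the probe sets of Nr3c1 differ on where IKKa-AA stands.

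Hsd11b2, the enzyme that inactivates corticosterone, was lowest in IKKa-AA. It read 6.93 and 6.22 on the WT arrays, 6.23 and 5.91 for IKKa-AA, 6.44 and 6.46 for bCATca and 6.57 and 6.69 for double mutants. Double mutants were 0.56 higher than IKKa-AA (SE 0.23) without overlap, while bCATca lay between the WT arrays and differed from WT by -0.13 (SE 0.23). The WT arrays were farther apart than any of the group means.

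Tsc22d3, the gene for GILZ, had a separate level in each group, with the largest gap between bCATca and the rest. Its brightest probe set, 1420772_a_at, read 9.79 and 8.82 on the WT arrays, 8.39 and 7.94 for IKKa-AA, 7.28 and 6.71 for bCATca and 8.75 and 8.75 for double mutants. No pair of groups overlapped, but WT replicate 2 and the double mutants were closer to each other than the WT arrays were. The bCATca mean was 2.32 below WT (SE 0.32), which is 4.98-fold lower, and IKKa-AA was 1.14 below WT. With both changes the level was 1.76 above bCATca (3.38-fold, SE 0.32) and 0.59 above IKKa-AA, and the double mutants stood 0.56 below WT.

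The other Tsc22d3 probe sets gave the same order of WT, double mutants, IKKa-AA and bCATca, in unequal size. The probe set 1425281_a_at read 9.44 and 8.66 on the WT arrays, 8.27 and 7.73 for IKKa-AA, 7.02 and 6.62 for bCATca and 8.25 and 8.67 for double mutants, close to the first. On 1425557_x_at, a type of probe set with probes that can match other transcripts, the range was narrower, from 6.42 in bCATca replicate 1 to 7.32 in WT replicate 1. There bCATca was 0.73 below WT (SE 0.16) and double mutants were 0.42 above bCATca.

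Fkbp5, the co-chaperone of the receptor, was lowest in bCATca, low in IKKa-AA, and high in WT and double mutants. Its probe set 1416125_at read 9.95 and 8.42 on the WT arrays, 8.08 and 7.16 for IKKa-AA, 6.57 and 7.30 for bCATca and 8.64 and 10.13 for double mutants. WT and double mutants overlapped, as did IKKa-AA and bCATca, and the first pair lay above the second on every array. The bCATca mean was 2.25 below WT (SE 0.61, 4.75-fold), IKKa-AA was 1.57 below WT, and double mutants were 2.45 above bCATca (SE 0.61, 5.45-fold) and 1.77 above IKKa-AA. Double mutants differed from WT by 0.20 (SE 0.61).

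The replicates of Fkbp5 were far apart in WT and in double mutants, and 1 array in each of these groups set much of the height. Without WT replicate 1, bCATca was 1.49 below WT and IKKa-AA differed from it by -0.805. Without double mutant replicate 2, the difference from bCATca was 1.70 and that from IKKa-AA 1.02. The second probe set, 1448231_at, had the same arrays on top, at 8.60 in WT replicate 1 and 8.83 in double mutant replicate 2, against 6.94 and 6.95 in their partners. It read 6.90 and 6.10 in IKKa-AA and 5.39 and 5.54 in bCATca, which gave a bCATca difference of -2.31 from WT (SE 0.66).

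Sgk1 had the widest range of the members, from 6.95 to 11.98. Its only probe set, 1416041_at, read 11.98 and 11.24 on the WT arrays, 8.83 and 9.52 for IKKa-AA, 9.47 and 6.95 for bCATca and 9.81 and 10.40 for double mutants. WT lay above every other array and double mutants above both single mutants, which overlapped. The bCATca mean was 3.40 below WT (SE 0.69, 10.6-fold) and IKKa-AA was 2.43 below WT (5.41-fold). Double mutants were 1.90 above bCATca (3.72-fold) and 0.93 above IKKa-AA, and still 1.51 below WT (2.84-fold).

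The bCATca arrays of Sgk1 were 1 bright and 1 dim, and they decided the size of 2 of these differences. Without bCATca replicate 2 the difference from WT was -2.14 and that of double mutants from bCATca was 0.64. Without bCATca replicate 1 they were -4.66 and 3.16. Of 8 measured small intestinal marker genes, 6 were also lowest on bCATca replicate 2, among them the glucose transporter Slc5a1 and the fatty acid binding protein Fabp1, and Gata4 and Fabp6 were not. Their summed linear intensity was 46100 and 49590 on the WT arrays, 38200 and 48490 for IKKa-AA, 35070 and 26080 for bCATca and 36400 and 41870 for double mutants. The part of this in the Sgk1 levels was not tested.

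Zbtb16, the transcription factor PLZF and a strongly hormone-induced gene in other tissues, was dim and followed the same order on a small scale. Its probe set 1427638_at read 4.94 and 4.88 on the WT arrays, 4.52 and 4.46 for IKKa-AA, 4.55 and 4.25 for bCATca and 4.79 and 4.94 for double mutants. WT and double mutants lay above both single mutants on every array. The bCATca mean was 0.51 below WT (SE 0.15), and double mutants were 0.46 above bCATca and 0.38 above IKKa-AA. All these levels were within 1 log2 unit of 4.03, the highest value reached by sex chromosome transcripts on arrays that lacked their expression, a guide to background that was set with these values known.

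The other Zbtb16 probe set, 1419874_x_at, was at or below that background guide on 6 of 8 arrays. The exceptions were WT replicate 1 at 5.68 and double mutant replicate 2 at 4.78, while their partners read 2.58 and 2.72. These are the same arrays on which Fkbp5 was highest in its group.

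Scnn1a, the α subunit of the epithelial sodium channel, stayed within a narrow range. It read 6.46 and 6.73 on the WT arrays, 6.36 and 6.52 for IKKa-AA, 6.00 and 6.37 for bCATca and 6.46 and 6.22 for double mutants. The bCATca arrays lay below the WT arrays by 0.41 on average (SE 0.18), and all other groups overlapped. Its partner subunits were near the background guide of 4.03, Scnn1b between 3.74 and 4.32 and Scnn1g between 3.15 and 3.78 over all arrays. Of the 9 colonic markers measured, 4 (Car1, Hoxb13, Atp12a and Hoxd10) were near background in every group, while Slc26a3 read 8.51 to 9.87 and Mettl7b 5.89 to 8.62. Of 8 small intestinal markers, 1 (Fabp6) was near background in every group.

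**Figure D1:**
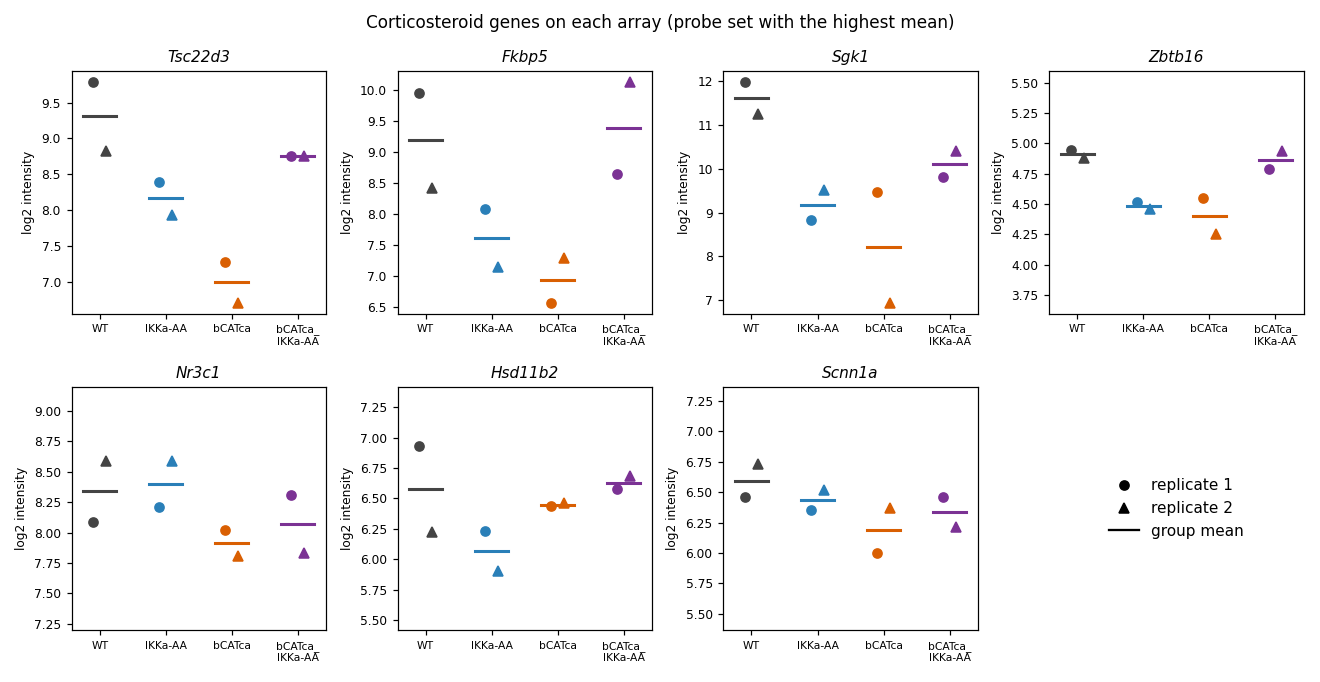
Log2 intensity on each of the 8 arrays for the 7 measured members, by genotype group, with a point per array and a line at each group mean. Tsc22d3, Fkbp5 and Sgk1 have their lowest group mean in bCATca (6.99, 6.94 and 8.21), whereas Nr3c1, Hsd11b2 and Scnn1a span less than 1 log2 unit.

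**Figure D2:**
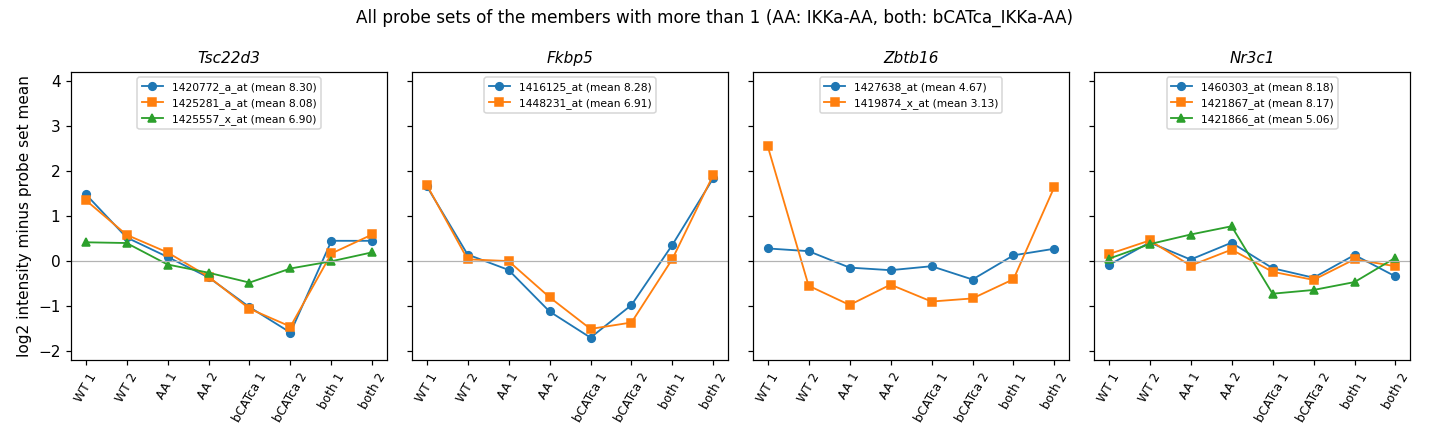
Levels of every probe set of Tsc22d3, Fkbp5, Zbtb16 and Nr3c1 on each array, as log2 intensity minus the probe set's own mean over the 8 arrays. Sgk1, Hsd11b2 and Scnn1a, each with a single probe set, are not drawn. The first and second probe sets of Tsc22d3 and both of Fkbp5 follow the same course, and Tsc22d3 1425557_x_at is flatter.

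Read over all 7 measured members, the direction of the differences was shared more widely than their size. All 7 means were lower in bCATca than in WT, and 6 of them without overlap, where 29.7% of all genes were lower without overlap. In IKKa-AA, 6 of 7 were lower than WT and 4 did not overlap, with 24.7% of all genes lower without overlap. Double mutants were above bCATca in 7 of 7 and without overlap in 5 (all genes 22.6%), and above IKKa-AA in 5 of 7, all 5 without overlap (all genes 19.9%). The median difference of the members was -0.51 in bCATca and -0.51 in IKKa-AA against WT, 0.46 in double mutants against bCATca and 0.56 against IKKa-AA, where the median of all genes lay between -0.00498 and 0.03. Since these contrasts picked the members, the counts and medians describe the choice and nothing is read from them.

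The same holds for calls by limma at a Benjamini-Hochberg adjusted p under 0.05. Of the members, 2 were called lower in bCATca than in WT (Tsc22d3 and Sgk1), where 9.29% of all genes were called and 3.55% were called lower. In double mutants against bCATca, 1 was called (Tsc22d3, higher), with 1.21% of all genes called and 0.403% called higher. No member was called in IKKa-AA against WT (all genes 0.00807%), in double mutants against IKKa-AA (0.0565%) or in the interaction (0.0888%), which takes the bCATca difference among IKKa-AA mice and subtracts the one among mice with normal IKKα.

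On the probe set that stands for each gene, the interaction value was positive for all 7 measured members, and largest for the target genes. It was 2.90 for Tsc22d3 (SE 0.45), 4.02 for Fkbp5 (SE 0.86), 4.33 for Sgk1 (SE 0.98) and 0.89 for Zbtb16 (SE 0.21). For these 4 genes both bCATca arrays were below both WT arrays, whereas both double mutant arrays were above both IKKa-AA arrays, except on Tsc22d3 1425281_a_at, where the latter overlapped. The share of all genes with both patterns was not counted. For Hsd11b2 the interaction value was 0.69 (SE 0.32), for Scnn1a 0.31 (SE 0.26) and for Nr3c1 0.10 (SE 0.33). The value of the receptor gene depended on the probe set and setting, with 0.52 on 1421867_at, 0.02 on 1421866_at and a range of -0.15 to 0.519 over the alternatives.

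**Figure D3:**
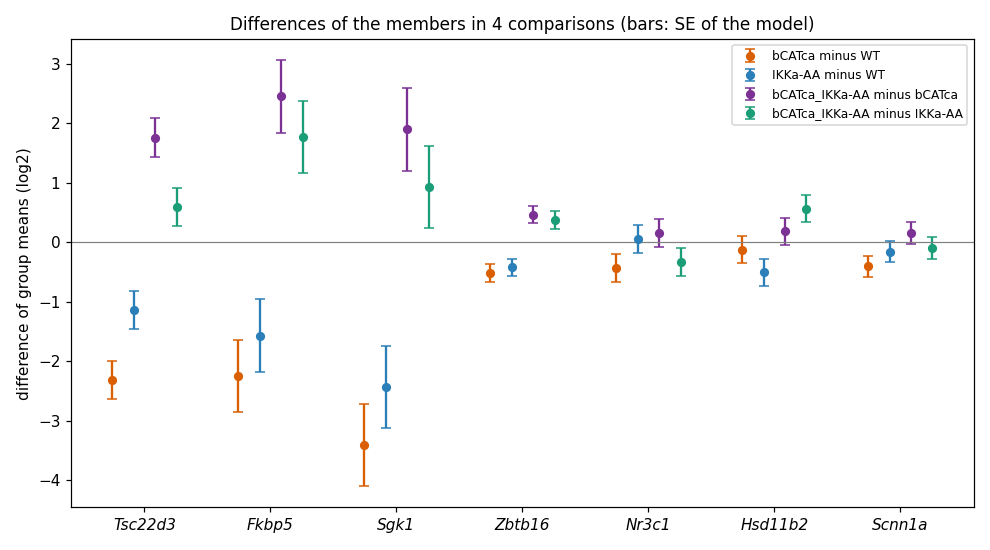
Differences of log2 group means with the model SE as error bars for the 7 measured members in the 4 comparisons. Sgk1 reaches -3.40 in bCATca against WT and Fkbp5 reaches 2.45 in double mutants against bCATca, while Nr3c1 stays between -0.43 and 0.16.

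Likeness between genes was measured as the root mean square difference between 2 profiles over the 8 arrays, each centred on its own mean, among 12392 other genes. The gene most like Tsc22d3 was Per2, a repressor of the circadian clock, at 0.35 (0.347), followed by the receptor tyrosine kinase Mertk at 0.40 and the clock-driven gene Noct at 0.41. Per2 was also the gene most like Fkbp5, at 0.50, with the member Tsc22d3 next at 0.67 and Acox2, a peroxisomal oxidase, at 0.75. Sgk1 kept other company: Hsd3b3, a steroid dehydrogenase, at 0.49, Pck1, the rate-limiting enzyme of gluconeogenesis, at 0.53, and N4bp2l1 at 0.64. For scale, the root mean square of the profiles themselves was 0.91 for Tsc22d3, 1.2 for Fkbp5 and 1.43 for Sgk1. Tsc22d3 stood at rank 12 from Sgk1, and Sgk1 only at rank 1957 from Fkbp5, at 1.14. These values describe 8 arrays that share 4 genotypes and carry no p.

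Other genes of the pathway were read in 6 lists, which hold none of the members and were chosen with earlier results of these arrays known. Across the lists, 114 genes were measured. In bCATca against WT, 8 rose and 17 fell (21.9%, against 9.29% of all genes), and in double mutants against bCATca 7 rose and 1 fell (7.02%, against 1.21%). In IKKa-AA against WT and in double mutants against IKKa-AA limma called 0 of the 114, with 24 and 14 at an unadjusted p under 0.05. Of all 12393 genes, 1449 and 859 had such an unadjusted p in these 2 comparisons. The comparisons with IKKa-AA turned on single arrays: over all genes 1 was called against WT with both IKKa-AA arrays and 325 without IKKa-AA replicate 2, and 7 were called in double mutants against IKKa-AA and 159 without IKKa-AA replicate 1.

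Receptor chaperones and coregulators, which fold the receptor and pass its signal to the transcription machinery, gave no call. Of 18 listed genes 12 were measured, and 0 passed in limma in any comparison, with 2 at an unadjusted p under 0.05 in bCATca against WT and 0 in the others. Of all 12393 genes, 3648 had such an unadjusted p in bCATca against WT, and 859 to 1950 in the others. The smallest adjusted p of the list belonged to the corepressor Nrip1, which differed by -0.49 in bCATca against WT (SE 0.18, limma adjusted p = 0.11, and 0.0373 for the mean of its probe sets). Elsewhere it was 0.544 for Med1 in IKKa-AA against WT, 0.415 for Ncoa3 in double mutants against bCATca, 0.777 for Ncoa3 against IKKa-AA and 0.437 for Bag1 in the interaction. The list's median difference in bCATca was 0.0060, and that of all genes was 0.0091.

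Genes of corticosteroid synthesis and metabolism moved in both directions. Of 13 measured genes, 1 rose and 2 fell in bCATca against WT. Abcb1a, an efflux pump that carries corticosteroids out of cells, read 10.37 and 10.80 in WT and 8.38 and 8.29 in bCATca, a fall of 4.78-fold (difference -2.26, SE 0.35, limma adjusted p = 0.00942). H6pd, which supplies the cofactor of the corticosterone-activating enzyme, rose from 6.06 and 5.62 to 7.15 and 7.29 (difference 1.38, SE 0.27, adjusted p = 0.0217). That enzyme, Hsd11b1, read between 4.46 and 4.77 on all arrays, near the bottom of the scale.

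Nr5a2, the nuclear receptor that drives glucocorticoid synthesis in the gut, fell in bCATca and rose in double mutants. It read 7.28 and 6.92 on the WT arrays, 6.94 and 6.77 for IKKa-AA, 6.35 and 6.40 for bCATca and 7.35 and 7.27 for double mutants. The bCATca difference was -0.72 (SE 0.16, limma adjusted p = 0.0306) and that of double mutants against bCATca was 0.94 (SE 0.16, adjusted p = 0.0382), with an interaction of 1.18 that did not pass (adjusted p = 0.0806). Each of these Nr5a2 calls was lost when any single array of WT, bCATca or the double mutants was left out, with adjusted p up to 0.149 and 0.215, and the call over bCATca also with the mean of probe sets and with the replicate block. The Abcb1a call was lost without WT replicate 2 (0.0801) or bCATca replicate 2, and that of H6pd without any single WT or bCATca array (up to 0.15).

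Glucocorticoid-induced genes outside the member list moved in both directions in bCATca. Of 28 measured genes, 3 rose and 5 fell against WT, and the list's median was -0.19. Pck1 fell most, from 9.61 and 8.57 in WT to 5.94 and 3.72 in bCATca (difference -4.26, SE 0.82, limma adjusted p = 0.0197), with 5.59 and 7.75 in IKKa-AA and 7.30 and 7.83 in double mutants. Mertk, an uptake receptor for dying cells, fell from 10.12 and 9.95 to 8.55 and 8.01 (difference -1.76, SE 0.25, adjusted p = 0.00664). Tgm2, a protein cross-linking enzyme, rose by 1.71 (SE 0.44) and only just passed (adjusted p = 0.04997), a call lost in 11 of 15 alternatives.

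In double mutants against bCATca, 2 of these 28 genes rose and 0 fell, with a list median of 0.27. Mertk rose by 1.43 (SE 0.25, limma adjusted p = 0.044) to 9.46 and 9.95, and Per1, a clock gene with a hormone response element, rose by 1.35 (SE 0.21, adjusted p = 0.0284) to 6.89 and 7.37 from 6.00 and 5.56. Both calls were lost when any single array of WT, bCATca or the double mutants was left out, with adjusted p up to 0.23 for Mertk and 0.173 for Per1. With all arrays kept, both were lost with log2(value + 16) and with the replicate block, and that of Mertk also with cyclic loess and among above-median genes. The Mertk call against WT was lost without WT replicate 1 (0.0591) or bCATca replicate 2, and the Pck1 call without WT replicate 1 (0.112), WT replicate 2 or bCATca replicate 2, and also with trend and robust settings. Pdk4, a kinase that spares glucose, had the smallest adjusted p of the list in IKKa-AA against WT (difference -3.51, adjusted p = 0.329), and Mt1, a metallothionein, had it in double mutants against IKKa-AA (difference 1.21, adjusted p = 0.179). Without IKKa-AA replicate 2 the Pdk4 value passed (0.0249), and without IKKa-AA replicate 1 that of Mt1 did (0.00692).

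The genes of aldosterone-sensitive sodium transport included 3 calls that held under every setting tried. Of 28 measured genes, 2 rose and 4 fell in bCATca against WT. Fxyd3, a regulator of the sodium pump, rose from 8.27 and 8.55 in WT to 10.51 and 11.07 (difference 2.38, SE 0.20, limma adjusted p = 0.000862). Car4, a brush border carbonic anhydrase, fell from 10.34 and 10.26 to 8.05 and 8.69 (difference -1.93, SE 0.20, adjusted p = 0.00171). Usp2, a deubiquitinase that acts on the sodium channel and on clock proteins, fell from 9.71 and 9.81 to 8.42 and 8.23 (difference -1.43, SE 0.17, adjusted p = 0.00284). These 3 calls were kept in all 15 alternatives, with adjusted p no higher than 0.0118, 0.0212 and 0.0335.

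In double mutants the same 3 genes moved back toward WT levels. Car4 read 9.96 and 10.08 and Usp2 9.57 and 9.91, above bCATca by 1.65 (SE 0.20) and 1.41 (SE 0.17), each with a limma adjusted p of 0.0153. Fxyd3 read 9.56 and 9.63, a fall of 1.19 from bCATca (difference -1.19, SE 0.20, adjusted p = 0.0382). The Car4 call was lost without bCATca replicate 1 or without either double mutant array (up to 0.113), the Usp2 call without any bCATca or double mutant array (up to 0.108), and the Fxyd3 call without any single array of WT, bCATca or the double mutants (up to 0.223) and with log2(value + 16) or the replicate block. The interaction for Usp2 was 1.71 (SE 0.24) and did not pass (limma adjusted p = 0.0501), though it passed in 5 of 15 alternatives, with a range of 0.0221 to 0.162. In IKKa-AA against WT the smallest adjusted p was 0.35, for Fxyd4.

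Close relatives of the members, such as other FK506 binding proteins and hydroxysteroid dehydrogenases, gave few calls. Of 19 measured relatives, 2 rose and 1 fell in bCATca against WT, and 0 passed in double mutants against bCATca. In the latter comparison Hsd17b2 had the smallest limma adjusted p (0.108), and 5 relatives had an unadjusted p under 0.05 (all genes 1832 of 12393). In bCATca against WT, Fkbp1a, the classic FK506 target, rose by 0.49 (SE 0.12, limma adjusted p = 0.0463). Hsd17b4 fell (difference -1.05, SE 0.27, adjusted p = 0.049). Fkbp11 rose by 1.67 (SE 0.35, adjusted p = 0.0267), but only 1 of its 3 probe sets had that sign. All 3 calls were lost without any 1 of the arrays of WT and the double mutants or without bCATca replicate 2, with adjusted p up to 0.204 for Fkbp1a and 0.247 for Hsd17b4. With all arrays kept, the Fkbp11 call was lost with the mean of its probe sets (0.196) and with log2(value + 16), that of Fkbp1a with the mean of its probe sets and the replicate block, and that of Hsd17b4 with quantile normalization, log2(value + 16) and the replicate block. Both of the latter were lost without bCATca replicate 1 as well. In IKKa-AA against WT, Fkbp11 and the H6pd gene above each had an adjusted p of 0.329, and of 0.0203 and 0.0402 without IKKa-AA replicate 2.

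The circadian clock list is set beside the members because Per2 had the profile most like Tsc22d3 and Fkbp5. Since that likeness comes from these same arrays, the calls for Per2 below lend the members no support. All 16 listed genes were measured, of which 0 rose and 5 fell in bCATca against WT, with a list median of -0.66. Per2 read 7.24 and 6.68 on the WT arrays, 5.82 and 5.67 for IKKa-AA, 4.35 and 4.78 for bCATca and 6.59 and 6.95 for double mutants. It fell in bCATca (difference -2.39, SE 0.23, limma adjusted p = 0.00134) and kept that call in the 14 alternatives that tested it. The output factor Hlf fell as well (difference -2.18, SE 0.40, adjusted p = 0.0168), as did Per3 (difference -1.38, SE 0.26, adjusted p = 0.0176). The Hlf call was lost without either WT array or bCATca replicate 2 (up to 0.114), and the Per3 call without WT replicate 2 (0.127) or either bCATca array.

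In double mutants against bCATca, 3 of the 16 clock genes rose and 0 fell. Per2 rose by 2.20 (SE 0.23, limma adjusted p = 0.0134), Per1 by the 1.35 given above, and the output factor Tef by 1.21 (SE 0.18, adjusted p = 0.0249). Per2 was also the only gene of the 114 with a called interaction, at 3.42 (SE 0.33, adjusted p = 0.0166): its bCATca difference was negative with normal IKKα and positive, though not called, in IKKa-AA mice (1.02, adjusted p = 0.391). The interaction call was lost without WT replicate 1 (0.0877), either bCATca array or double mutant replicate 1, and with log2(value + 16). The Per2 rise over bCATca was lost without bCATca replicate 1 or either double mutant array (up to 0.0729). The Tef call was lost when any single array of WT, bCATca or the double mutants was left out (up to 0.178), and with the mean of its probe sets. In IKKa-AA against WT the smallest adjusted p of the list was 0.227, for the clock repressor Bhlhe40 (difference -0.75).

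Dbp and Nr1d1 gave no call in any comparison. Dbp, an output gene with a large daily swing, read 6.83 and 8.86 on the WT arrays, 6.52 and 8.35 for IKKa-AA, 6.84 and 5.89 for bCATca and 7.73 and 8.02 for double mutants, so that replicates of a group were far apart. Nr1d1, the repressor REV-ERBα, read 5.87 and 7.94 on the WT arrays, 8.10 and 8.78 for IKKa-AA, 7.85 and 7.05 for bCATca and 7.44 and 7.72 for double mutants. WT replicate 1 was the lowest array for Nr1d1 and the highest for Tsc22d3, Sgk1 and Per2. The hour of collection is not given in the sources used here, and its part in the member levels was not tested.

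**Figure D4:**
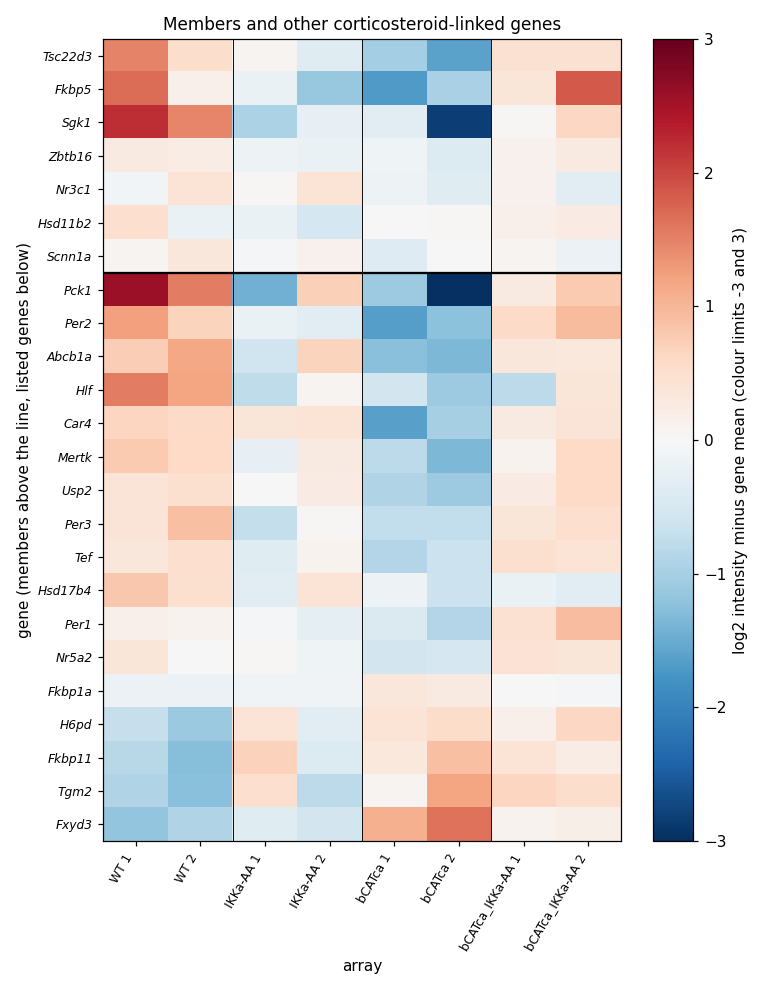
Log2 intensity minus each gene's own mean over the 8 arrays (colour scale in log2 units), with arrays in columns by group. The 7 measured members are above the line, and the 17 pathway genes named for passing a test are below it. Per2, Usp2, Car4 and Mertk are low on both bCATca arrays and near WT in double mutants, and Fxyd3 is high on both bCATca arrays.

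Some differences between arrays run alongside these results. Epithelial markers had a summed intensity of 34620 to 39270, a narrow range, though single markers moved in either direction. Krt18 read 11.99 and 12.06 in bCATca against 10.74 and 10.97 in WT. Vil1 read 11.84 on both bCATca arrays against 12.13 and 12.21 in WT. T cell markers, with 13 of 15 measured and none near background, summed to 12280 and 8981 on the WT arrays, 2741 and 10120 for IKKa-AA, 7655 and 5665 for bCATca and 1308 and 967 for double mutants. Tsc22d3 and Fkbp5, which lymphocytes also express, were higher in double mutants than in bCATca while the summed T cell markers were lower. In bCATca against WT, both genes and the summed T cell markers were lower. Myeloid markers ranged from 510.4 to 934.6 and stromal markers from 293.3 to 448, both highest in bCATca. B and plasma cell markers, with 8 of 10 measured and Pax5 near background, summed to 4917 and 5696 on the WT arrays, 4733 and 7794 for IKKa-AA, 7772 and 7213 for bCATca and 3846 and 4518 for double mutants. Among them the immunoglobulin joining chain Jchain read 8.73 and 8.29 on the bCATca arrays against 2.34 and 2.72 for double mutants. Handling stress markers summed to 3634 to 5897, with 5535 and 5629 on the WT arrays. The heat shock gene Hspa1a was highest on WT replicate 1 (8.39, against 4.40 on WT replicate 2), as was Hspa1b. Other genes of the list went the other way: Fos, Fosb, Jun, Junb, Egr1, Ier3 and Atf3 were lower on WT replicate 1 than on WT replicate 2. Ier2 was slightly higher there. The 18S RNA control probe set for the 5′ end read 9.66 and 10.74 in WT and 11.41 and 11.43 in IKKa-AA, with the other groups between 10.58 and 10.96. WT replicate 1 alone had high Xist (9.18, others at most 4.03) with the Y-linked genes at 2.02 to 2.56, a female pattern. All other arrays had a male pattern. The parts of these array differences, sex among them, in the member levels were not tested.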

How the data were processed

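Total RNA, 200 ng per sample, had been amplified, labelled with biotin and hybridised, per the labels' protocols. The authors deposited linear intensity values for 22690 probe sets on 8 arrays. The submitters' processing notes name RMA and affy, without versions. RMA gives log values after setting arrays to a common distribution, so a return to the linear scale is read from the values. Here log2 was taken. Array medians were 50.9 to 53.8 in intensity, and precision is limited by the number of arrays.

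The platform annotation gave 1 symbol for 20380 probe sets, and 20351 symbols were updated through Entrez identifiers. The probe set with the highest mean stood for a gene (12393 genes). All arrays entered one limma 3.58.1 fit under R 4.3.3 (lmFit, eBayes; group means, 4 residual and 4.28 prior degrees of freedom). A call is a p under 0.05 after Benjamini-Hochberg adjustment over all genes. The procedure was also run on simulated data with independent noise in each gene. That simulation held no variation shared by the genes of an array, so it cannot vouch for the calls made here. The labels do not say that replicates were separate animals, so p-values reflect only the spread among these arrays, which may be technical.

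The members, the 6 pathway lists and the 9 marker lists were chosen with earlier results of these data known. Genes were named by rule: all members, up to 3 called genes with the largest difference per list and comparison (or the smallest p where none passed), the 3 genes most like each member whose group means span over 1, and Per1, Per2, Dbp and Nr1d1. Scnn1b, Scnn1g and Hsd11b1 were added as the partners of members or named genes, after their values were seen. Alternatives were quantile and cyclic loess normalization, the mean of a gene's probe sets, log2(value + 16), only genes above the median level, the replicate number as a block, eBayes with trend and robust settings, and each array left out. The IKKα gene itself was not analysed here. Promoter windows came from RefSeq (GRCm38.p6).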

Additional observations from a re-analysis of the deposited data

Results flagged for a closer look

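Per2, the gene most like Tsc22d3 and Fkbp5, had a bCATca effect that differed between mice with and without the IKKa-AA change. That likeness was measured on these same arrays, and its list was chosen with earlier results known. The Per2 call therefore lends the members no support. The interaction was 3.42 on the log2 scale (limma adjusted p = 0.0166 over all genes). The bCATca effect was negative on normal IKKα (-2.39) and positive but not called on IKKa-AA (1.02, adjusted p = 0.391), and the interaction call was lost in 5 of 14 alternatives.

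For 4 members, on the probe set that stands for each gene, the groups stood apart in opposite directions with normal IKKα and with IKKa-AA. Both bCATca arrays lay below both WT arrays, and both double mutant arrays lay above both IKKa-AA arrays. Of all genes, 29.7% were lower without overlap in the first comparison and 19.9% higher without overlap in the second. The share of all genes with both was not counted. The bCATca effects differed by 2.90 for Tsc22d3, 4.02 for Fkbp5, 4.33 for Sgk1 and 0.888 for Zbtb16. On a second Tsc22d3 probe set, double mutants and IKKa-AA overlapped. The fit over all genes called 0 of these 4 interactions, and since the genes had been picked on these arrays the values are a description and were not tested in independent samples.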

How the results depend on the processing

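Over the alternatives, 550 member differences were recomputed, of which 51 moved by more than the replicate spread and 13 changed sign, 0 of the latter among differences over 1 on the log2 scale. Many of the 550 could not move. The replicate block, the trend and robust settings and the above-median filter leave a difference of group means as it was. So does leaving out an array of a group outside the comparison. The share that stayed is therefore no measure of stability. Counts of genes called moved as follows, and the cause was not tested. Double mutants against IKKa-AA gave 7 genes, but 0 with quantile normalization, log2(value + 16) or above-median genes only, 4 with cyclic loess and 1 with the mean of probe sets. IKKa-AA against WT gave 1 gene, but 0 with log2(value + 16) or above-median genes and 4 with trend and robust settings. The interaction gave 11 genes, but 7 with log2(value + 16), 45 among above-median genes and 73 with trend and robust settings. Double mutants against bCATca gave 150 genes and 63 among above-median genes. For pathway list genes, the interaction gave 1, but 2 with the mean of probe sets, 0 with log2(value + 16), 5 among above-median genes and 8 with trend and robust settings, and double mutants against bCATca gave 8 and 5 with log2(value + 16).

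With each array left out in turn, the genes called ranged from 223 to 1885 in bCATca against WT, 0 to 325 in IKKa-AA against WT, 11 to 395 in double mutants against bCATca, 0 to 159 in double mutants against IKKa-AA, and 0 to 234 in the interaction. The pathway list genes called ranged from 5 to 36, 0 to 10, 0 to 14, 0 to 3 and 0 to 14 in the same order.

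The replicate numbers did not pair the samples: deviations of same-numbered arrays correlated between -0.448 (bCATca and IKKa-AA) and 0.15 (IKKa-AA and WT). With the replicate number as a block, the genes called were 701 in bCATca against WT, 72 in double mutants against bCATca, 0 in double mutants against IKKa-AA and 6 in the interaction, and the pathway list genes called were 18, 4, 0 and 1.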
